A study of Mus musculus with 25 samples.

Results

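Collagen genes were followed as a family in mouse liver. Members were all rows of the count table whose symbol is Col, digits, a, digits, which gave 44 genes of the 24537 in the table. Of these, 32 had enough reads to be tested among 14133 genes tested in all. The livers came from C57BL6/J mice, all male and 24 months old, and polyA RNA was sequenced in 25 libraries. All groups carried a knockout. The control genotype was Rosa26KO, named for the Rosa26 locus, and the other was p53KO, a knockout of the tumour suppressor gene Trp53. Each genotype was on a control diet or on a high-fat diet (HFD), giving Control_Rosa26KO (n = 6), Control_p53KO (n = 6), HFD_Rosa26KO (n = 6) and HFD_p53KO (n = 7). How the knockouts were made, in which cells, and how long the diet lasted are not stated in the sources used here. Libraries are named by group and replicate number, such as Control_p53KO 1.

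Collagens are trimeric proteins of the extracellular matrix built from chains that wind into a triple helix. Fibrillar collagens such as types I and III form the cables of scar tissue, type IV forms the network of basement membranes, and type VI forms beaded filaments. FACIT collagens decorate fibrils, multiplexins link basement membranes to the matrix around them, and a few collagens span the cell membrane. In liver, hepatic stellate cells and portal fibroblasts are the known makers of scar collagens, whereas hepatocytes are known for type XVIII, whose C-terminal fragment is endostatin.

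Levels are given as CPM, read counts relative to the library total (per 1e6 reads) after scaling by TMM, a method that corrects for differences in composition between libraries. Total counts ran from 16324283 to 21501281 per library. Trp53 was at 31.6 to 43.7 CPM in Control_Rosa26KO, 17.2 to 35.6 CPM in Control_p53KO, 30.6 to 43.8 CPM in HFD_Rosa26KO and 19.6 to 31.0 CPM in HFD_p53KO. The genotypes' ranges thus overlapped on both diets, while the means were lower in p53KO. On control diet the mean was 24.1 CPM in p53KO against 36.8 CPM in Rosa26KO, and on HFD 26.0 against 37.1 CPM. All 8 hepatocyte markers were detected, and their summed level lay between 49666 and 163568 CPM over all libraries. Some libraries stood apart from their group. On the first principal component of log2 CPM over the genes tested, with 35.1% of the variance, the HFD libraries had a mean of 11.8 and the control-diet libraries a mean of -12.8, but HFD_p53KO 5 was at -29.4 and HFD_p53KO 7 at -59, while Control_p53KO 1, Control_p53KO 3 and Control_Rosa26KO 2 were at 30.8, 60.4 and 24.5. Control_p53KO 1, Control_p53KO 3 and HFD_Rosa26KO 6 were high in neutrophil markers, at 539.4, 67.4 and 315.1 CPM summed. Nothing in the labels states that libraries are separate animals, so p-values measure only the spread between these samples. In whole liver, fewer cells of a type and less RNA per cell cannot be told apart.

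Collagen transcripts in these livers were dominated by Col18a1. Between genes, levels were compared per length, as CPM per kb of the protein-coding transcript with the longest coding sequence. Col18a1 stood at 196 CPM per kb over all libraries, and it made up 64.6% of the collagen total on that scale. The next gene was Col3a1, the chain of fibrillar type III, at 16.5 CPM per kb. Col4a1 followed at 11.4, the fibrillar Col5a3 at 11.2, the FACIT collagen Col14a1 at 10.6, and both type I chains, Col1a1 and Col1a2, at 9.10 and 9.05 CPM per kb. Then came Col4a2 at 7.10, Col6a1 at 6.57, Col6a2 at 4.93, Col27a1 at 4.05, Col5a2 at 3.995, Col15a1 at 3.31, Col6a3 at 2.80 and Col5a1 at 2.28 CPM per kb. These 15 genes were those whose mean reached 10 CPM. The ranges over libraries of neighbours in this order overlapped, except for Col18a1, whose lowest library lay above the highest library of each of the others.

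**Figure D1:**
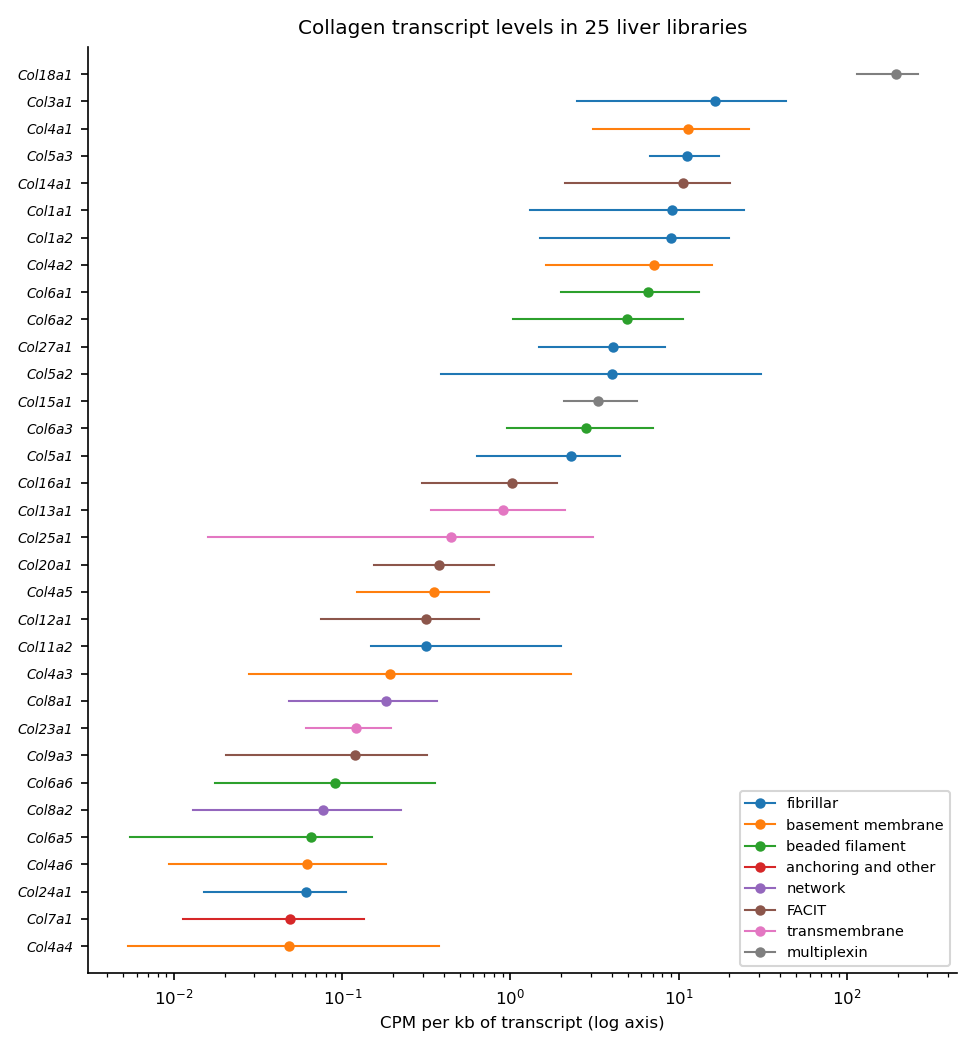
Level of each collagen gene that had reads in all 25 libraries, in CPM per kb of transcript on a log axis. Points are means over 25 libraries, lines run from the lowest to the highest library, and colours mark the families. Col18a1 stands alone at 196 CPM per kb, and the lines of Col5a2 and Col25a1 are long.

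The remaining members were scarce. A filter on low counts removed 12 members, and 11 of these had under 100 reads in total over 25 libraries. The cartilage gene Col2a1 had 3 reads, its partner Col11a1 had 3, Col9a1 had 2, Col19a1 had 1, and Col26a1 had none. Col10a1, the collagen of hypertrophic cartilage, had 14 reads, Col9a2 had 10 and Col6a4 had 8. Col17a1, a collagen of skin hemidesmosomes, had 30 reads, Col28a1 had 42, Col22a1 had 52 and Col8a2 had 168. The 12 genes were not tested.

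The question of diet was asked in each genotype and as the average of both. Of the 32 members tested, 3 passed in the average (9.38%), and 9.71% of all genes tested did so, with edgeR's quasi-likelihood test and a Benjamini-Hochberg adjusted p under 0.05. The collagens were thus called about as often as genes in general. Col12a1 rose on HFD, alone among the members against 4.64% of all genes. Col13a1 and Col7a1 fell, 2 of 32 against 5.07% of all genes. An unadjusted p under 0.05 was reached by 11 members, against 24.3% of all genes. The members' median log2 fold change was 0.001, with 16 of 32 above 0, and over all genes the median was -0.01 with 47.6% above 0. Within a genotype no member passed by edgeR. In Rosa26KO 5 members had an unadjusted p under 0.05 and DESeq2 called 0, while 1.51% of all genes passed and 17.5% had an unadjusted p under 0.05. In p53KO 6 members had an unadjusted p under 0.05 and DESeq2 called 1, Col13a1 (adjusted p = 0.0286), while 2.87% of all genes passed and 18.8% had an unadjusted p under 0.05.

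Col12a1 (chromosome 9, 79598991 to 79718831, GRCm38) encodes type XII collagen, a FACIT collagen found on type I fibrils under load. Its lowest, median and highest values were 1.49, 1.97 and 4.05 CPM in Control_Rosa26KO and 0.857, 2.98 and 5.21 CPM in Control_p53KO. On HFD they were 3.32, 4.78 and 6.30 CPM in Rosa26KO and 1.42, 5.04 and 7.44 CPM in p53KO. Of 13 HFD libraries 12 lay above the median of the control diet and 5 above its highest library, so the diets overlapped. HFD_p53KO 7, at 1.42 CPM, was the low one. The average log2 fold change was 0.88 (SE 0.25, edgeR adjusted p = 0.0271), with 1.07 (SE 0.36) in Rosa26KO and 0.70 (SE 0.35) in p53KO. Within the 3 runs of consecutive library names it was 0.96, 0.79 and 1.13 as a difference of mean log2 CPM. Within Rosa26KO it passed without Control_Rosa26KO 2 (1.33, adjusted p = 0.0485). The average call was lost without Control_p53KO 2 (adjusted p = 0.0515) or Control_Rosa26KO 6 (adjusted p = 0.0509).

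Col13a1 (chromosome 10, 61838236 to 61979108) encodes a collagen that spans the cell membrane at adhesion sites. It ranged from 1.44 to 5.03 CPM with a median of 3.22 in Control_Rosa26KO, and from 2.10 to 6.69 CPM with a median of 4.05 in Control_p53KO. On HFD the range was 1.06 to 2.92 CPM with a median of 2.20 in Rosa26KO, and 1.11 to 3.37 CPM with a median of 1.85 in p53KO. None of the 13 HFD libraries lay above the control median of 3.62 CPM, and 3 lay below the lowest control library. The average log2 fold change was -0.83 (SE 0.22, edgeR adjusted p = 0.0184), with -0.66 (SE 0.32) in Rosa26KO and -0.99 (SE 0.30) in p53KO. The adjusted p stayed below the threshold whichever single library was left out, between 0.00973 and 0.0415. Within p53KO it passed without HFD_p53KO 5 (-1.15, adjusted p = 0.0411). Within runs of library names the difference was -0.95, -1.22 and -0.23.

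Col7a1 (chromosome 9, 108953586 to 108984875) encodes type VII collagen, which forms the anchoring fibrils beneath epithelia, and was scarce at 223 reads in all. It ranged from 0.183 to 0.883 CPM (median 0.448) in Control_Rosa26KO and from 0.280 to 1.25 CPM (median 0.726) in Control_p53KO. On HFD it ranged from 0.104 to 0.477 CPM (median 0.297) in Rosa26KO and from 0.267 to 0.555 CPM (median 0.339) in p53KO. Of 13 HFD libraries 1, HFD_p53KO 3, lay above the control median. The average log2 fold change was -0.82 (SE 0.26, edgeR adjusted p = 0.0487), close to the threshold. It kept its call in 6 of 25 fits with 1 library left out, those without Control_Rosa26KO 5, Control_p53KO 1, Control_p53KO 4, HFD_Rosa26KO 3, HFD_Rosa26KO 4 or HFD_p53KO 3. With no filter on low counts the adjusted p was 0.0704.

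The bases before the start of transcription are shown for the called genes that the promoter table held, and for Col3a1 as the most abundant fibrillar gene per length. They come from RefSeq on GRCm38.p6, each 250 bases that end just before the start, at chr10:61979109-61979358 (minus strand), chr9:108953336-108953585 (plus) and chr1:45311288-45311537 (plus). Capitals mark matches on either strand to 3 promoter motifs that do not overlap each other here. The GC box was searched as GGGCGG. The CAAT box was searched as CCAAT. The TATA box was searched as TATAAA.
Col13a1: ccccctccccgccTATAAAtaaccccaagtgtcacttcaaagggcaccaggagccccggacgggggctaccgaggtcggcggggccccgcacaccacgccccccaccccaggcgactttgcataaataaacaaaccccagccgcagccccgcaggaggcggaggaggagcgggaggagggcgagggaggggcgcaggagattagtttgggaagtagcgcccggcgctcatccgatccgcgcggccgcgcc
Col7a1: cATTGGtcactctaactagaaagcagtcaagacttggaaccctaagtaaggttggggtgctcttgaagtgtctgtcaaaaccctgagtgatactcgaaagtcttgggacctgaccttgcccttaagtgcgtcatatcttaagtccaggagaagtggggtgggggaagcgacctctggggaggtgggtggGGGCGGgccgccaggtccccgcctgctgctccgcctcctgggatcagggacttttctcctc
Col3a1: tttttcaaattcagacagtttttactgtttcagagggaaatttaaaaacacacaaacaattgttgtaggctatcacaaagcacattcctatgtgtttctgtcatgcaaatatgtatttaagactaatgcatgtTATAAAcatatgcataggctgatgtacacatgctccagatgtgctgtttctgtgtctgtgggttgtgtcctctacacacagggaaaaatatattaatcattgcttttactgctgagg
The genes called down did not share a motif. Col13a1 held a TATA box that began 237 bases before its start, and Col7a1 held a GC box 61 bases before and a CAAT box in the other orientation 249 bases before. Col3a1 held a TATA box 117 bases before its start. GC content was 68.8% for Col13a1, 56.4% for Col7a1 and 35.2% for Col3a1. Of 38 collagen windows, from the 35 members in the table, 22 held the GC box, 13 the CAAT box and 5 the TATA box. The share over all 32851 windows of this length was 32.7%, 33.8% and 12.4%. A match is a description of letters and no evidence of binding.

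The major fibrillar genes were higher in most HFD libraries and did not pass. Col3a1 (chromosome 1, 45311538 to 45349706) ranged from 35.5 to 155 CPM with a median of 49.7 in Control_Rosa26KO, and from 26.4 to 114 CPM with a median of 52.9 in Control_p53KO. On HFD it ranged from 68.5 to 171 CPM with a median of 107 in Rosa26KO, and from 13.9 to 241 CPM with a median of 99.7 in p53KO. Of 13 HFD libraries 11 lay above the control median, 3 lay above the highest control library, and HFD_p53KO 7 lay below the lowest. The average log2 fold change was 0.84 (SE 0.34, edgeR adjusted p = 0.128). Col1a1 (chromosome 11, 94936224 to 94953042), the α1 chain of type I, averaged 36.5 ± 34.9 and 38.3 ± 28.6 CPM on control diet (Rosa26KO first, SD, n = 6 each). The HFD means were 61.8 ± 30.4 CPM for Rosa26KO (SD, n = 6) and 75.6 ± 52.8 CPM for p53KO (SD, n = 7), with an average log2 fold change of 0.87 (SE 0.42, edgeR adjusted p = 0.208). The SD within groups ran from 28.6 to 52.8 CPM, and the diets overlapped. Col1a2, the α2 chain, was at 34.2 ± 25.7 and 36.5 ± 21.4 CPM (SD, n = 6 each) on control diet and at 59.4 ± 22.7 (SD, n = 6) and 61.3 ± 38.9 CPM (SD, n = 7) on HFD, Rosa26KO first, with an average log2 fold change of 0.77 (SE 0.35, edgeR adjusted p = 0.172).

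The type I and III genes passed when certain libraries were left out. Control_Rosa26KO 2 held 107 CPM of Col1a1, against 16.3 to 27.4 CPM in the other 5 libraries of its group. At the other end, HFD_p53KO 7 held 7.72 CPM and HFD_p53KO 5 held 19.0 CPM of Col1a1, against 55.2 to 144 CPM in the other 5 libraries of that group. Without Control_Rosa26KO 2 the average log2 fold change was 1.23 for Col1a1 (edgeR adjusted p = 0.0437), 1.03 for Col1a2 (0.0385) and 1.07 for Col3a1 (0.0341), so all 3 passed. Without HFD_p53KO 5 and 7 together they also passed, at 1.07 (0.0495), 0.96 (0.0269) and 1.04 (0.0130). Col3a1 passed without HFD_p53KO 7 alone (0.94, adjusted p = 0.0362). These libraries stand out in these same genes, so leaving them out raises the difference and is no separate support for it. The share of all genes that passed also rose from 9.71%, to 13.2% without Control_Rosa26KO 2, 15.6% without HFD_p53KO 5 and 7, and 13.2% without HFD_p53KO 7. The same limit holds wherever a member's fit leaves out a library that is high or low for it. Within runs of library names the diet difference was positive in each of the 3 runs, at 0.90, 1.72 and 0.44 for Col1a1 and 0.96, 1.26 and 0.39 for Col3a1 as differences of mean log2 CPM.

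**Figure D2:**
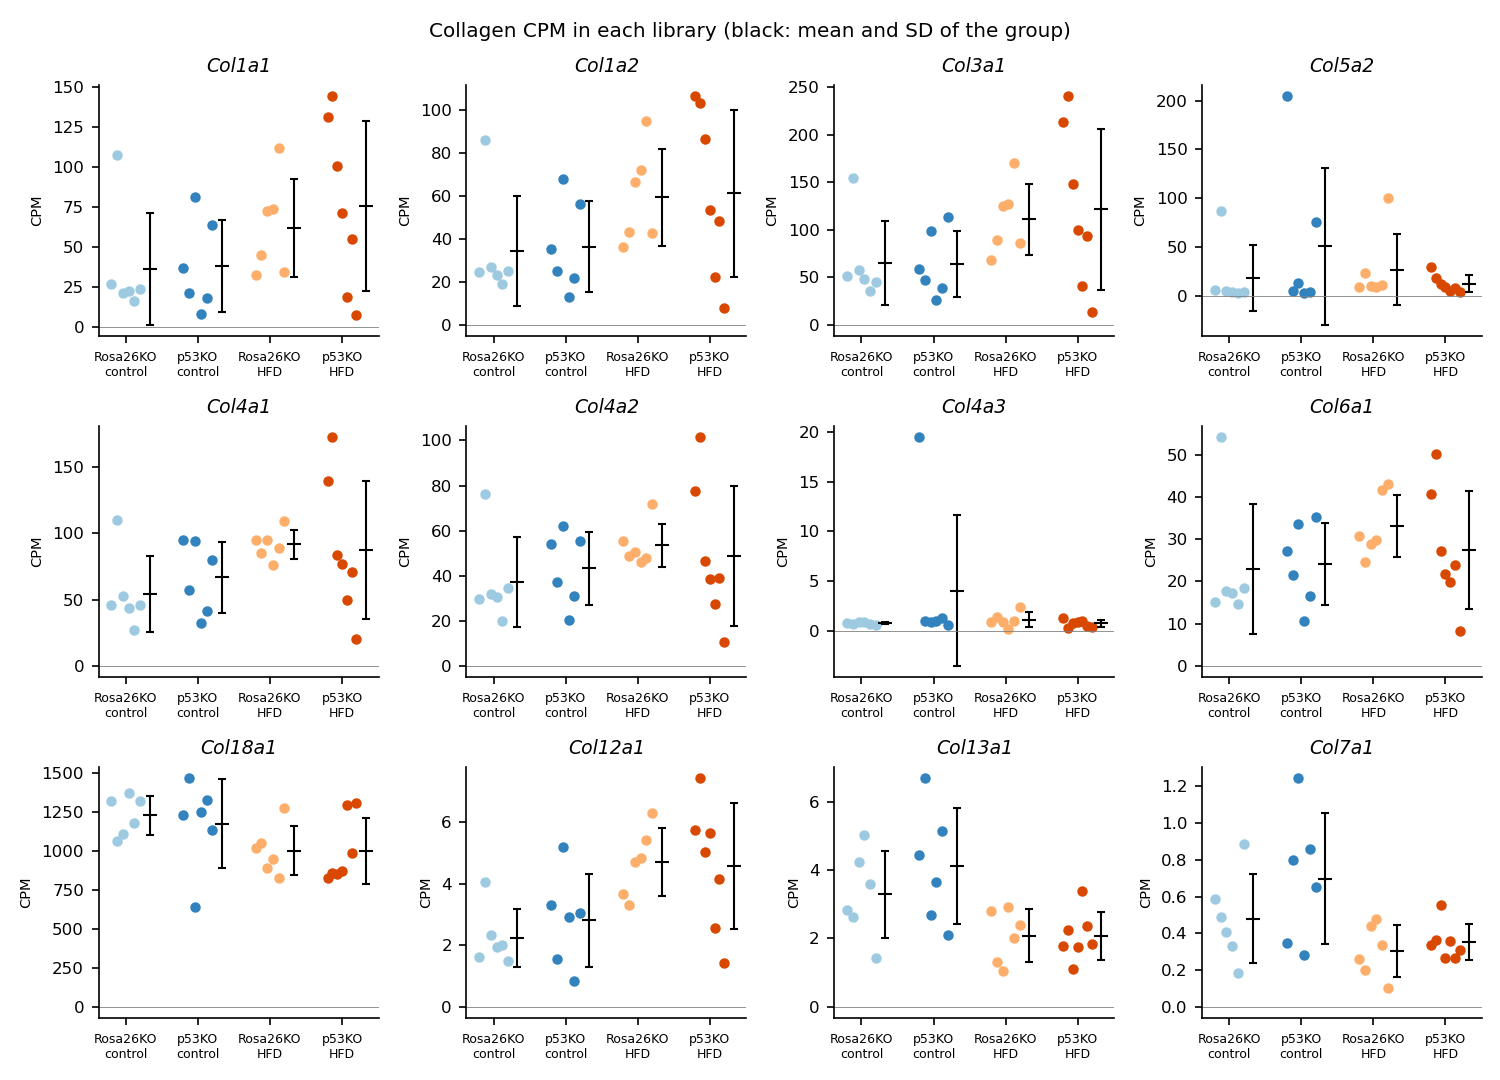
CPM of 12 collagen genes in each library, one point per library, by genotype and diet. Black marks give the mean and SD of a group (n = 6, 6, 6 and 7). SD bars that reach below 0 reflect few high libraries, such as Control_p53KO 1 and 6 for Col5a2. Control_Rosa26KO 2 stands above its group for Col1a1 (107 CPM), and Control_p53KO 1 stands above all others for Col4a3 (19.5 CPM).

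Type V and the minor fibrillar genes did not pass, and their signs were mixed. Type V chains join type I in mixed fibrils and limit their width. Col5a1 was at 17.1 ± 6.78, 18.0 ± 5.002, 20.7 ± 3.08 and 20.7 ± 11.2 CPM (SD, n = 6, 6, 6 and 7) in Control_Rosa26KO, Control_p53KO, HFD_Rosa26KO and HFD_p53KO, with an average diet log2 fold change of 0.24 (SE 0.22, edgeR adjusted p = 0.552). Its exons overlap noncoding genes, so that without strand some reads may be theirs. Col5a3, at 77.5 ± 19.5, 64.5 ± 17.7, 63.3 ± 11.6 and 69.0 ± 12.8 CPM in the same order, had a log2 fold change of -0.10 (SE 0.13). Col27a1, a fibrillar collagen known from cartilage, was at 39.1 ± 15.1, 33.5 ± 17.6, 23.2 ± 9.76 and 28.0 ± 11.5 CPM, with a log2 fold change of -0.51 (SE 0.24, edgeR adjusted p = 0.203). Col24a1 and Col11a2 had 0.15 (SE 0.23) and -0.62 (SE 0.33). Over the 9 fibrillar members tested, none passed by edgeR, 3 had an unadjusted p under 0.05, and the median was 0.15, beside 9.71% and 24.3% of all genes past these thresholds.

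Col5a2, the α2 chain of type V, had the widest spread of the abundant members. It lay between 75.6 and 205 CPM in 4 libraries, which were Control_p53KO 1 (205 CPM), HFD_Rosa26KO 6 (99.7), Control_Rosa26KO 2 (86.9) and Control_p53KO 6 (75.6), and between 2.57 and 29.2 CPM in the other 21. The 4 libraries came from 3 of the 4 groups and followed neither diet nor genotype. Its partner Col5a1 stood at 15.9, 20.01, 30.1 and 23.2 CPM in the same libraries, within the range of the others. The count ratio of Col5a2 to Col5a1 reached 12.9 and was as low as 0.226. These 4 libraries were singled out after their values were seen. The diet log2 fold change of Col5a2 was -0.74 (SE 0.70), between -1.30 without HFD_Rosa26KO 6 and 0.28 without Control_Rosa26KO 2.

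Both main chains of the basement membrane were higher in most HFD libraries, again without a call. Col4a1 (chromosome 8, 11198423 to 11312826, minus strand) was at 54.2 ± 28.8 CPM in Control_Rosa26KO, 66.7 ± 26.9 in Control_p53KO, 91.7 ± 11.2 in HFD_Rosa26KO (SD, n = 6 each) and 87.7 ± 52.1 in HFD_p53KO (SD, n = 7). Of 13 HFD libraries 12 lay above the control median. The average log2 fold change was 0.58 (SE 0.26, edgeR adjusted p = 0.173), and it was 0.74 (adjusted p = 0.0487) without Control_Rosa26KO 2 and 0.73 (adjusted p = 0.0265) without HFD_p53KO 5 and 7. Col4a2 (chromosome 8, 11312805 to 11449287, plus strand) was at 37.2 ± 19.8, 43.3 ± 16.3, 53.4 ± 9.64 and 48.7 ± 30.9 CPM in the same order, with a log2 fold change of 0.35 (SE 0.26, edgeR adjusted p = 0.453). The count ratio of Col4a1 to Col4a2 was 1.46 ± 0.126 in Control_Rosa26KO, 1.53 ± 0.141 in Control_p53KO, 1.73 ± 0.134 in HFD_Rosa26KO and 1.84 ± 0.0997 in HFD_p53KO, higher on HFD in both genotypes as a description. These genes run head to head, and their first exons share 22 bases on opposite strands at chr8:11312805-11312826, given here from RefSeq on GRCm38.p6 on the plus strand with the GC box in capitals, because reads over them cannot be assigned without strand.
Col4a2 with Col4a1: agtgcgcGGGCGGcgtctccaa

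Col4a3 and Col4a4, chains of the basement membrane of the kidney filter, were low except in a single library. Control_p53KO 1 held 19.5 CPM of Col4a3 against 0.238 to 2.40 CPM in the other 24 libraries, and 3.82 CPM of Col4a4 against 0.0535 to 0.781 CPM. Across the remaining libraries no group stood apart. Fitted with all libraries, Col4a3 had a diet log2 fold change of -2.42 in p53KO (SE 0.68, edgeR adjusted p = 0.0528), and -0.36 (adjusted p = 0.680) without Control_p53KO 1. It passed in 5 fits with a library left out, without Control_p53KO 3 (-2.63, adjusted p = 0.0361), Control_p53KO 4 (0.0263), Control_p53KO 6 (0.0422), HFD_Rosa26KO 6 (0.0479) or Control_Rosa26KO 2 (0.0497). Col4a4 had -1.67 (SE 0.64) in p53KO and -0.51 without Control_p53KO 1. Exons of Col4a3 overlap a noncoding gene, where reads cannot be assigned without strand. The genes lie head to head on chromosome 1 with 71 bases between their annotated starts, at chr1:82586850-82586920, shown because both genes were high in the same library. The bases are from RefSeq on GRCm38.p6, read in the direction of Col4a4, and hold none of the 3 motifs.
Col4a4 to Col4a3: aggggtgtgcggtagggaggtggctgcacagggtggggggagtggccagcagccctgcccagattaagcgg
Col4a5 and Col4a6, their X-linked relatives, had average diet log2 fold changes of -0.33 (SE 0.26) and -0.02 (SE 0.35).

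Type VI genes, whose products form beaded filaments around cells, did not pass. Col6a1 was at 22.9 ± 15.4, 24.1 ± 9.71, 33.2 ± 7.41 and 27.4 ± 14.0 CPM (SD, n = 6, 6, 6 and 7) in Control_Rosa26KO, Control_p53KO, HFD_Rosa26KO and HFD_p53KO, and 12 of 13 HFD libraries lay above the control median. Its average log2 fold change was 0.36 (SE 0.25, edgeR adjusted p = 0.421). Col6a2, at 16.7 ± 12.4, 17.4 ± 8.56, 23.3 ± 5.17 and 20.3 ± 12.3 CPM, had 0.35 (SE 0.30), and Col6a3, at 27.3 ± 21.9, 28.1 ± 13.4, 29.1 ± 6.93 and 28.7 ± 14.2 CPM, had 0.06 (SE 0.28). Control_Rosa26KO 2 was again the high library of its group, at 54.3, 41.8 and 71.5 CPM, and without it the values were 0.59, 0.61 and 0.34, none past the threshold. Col6a5, a scarce α chain, was the member whose groups did not overlap between diets in Rosa26KO. It ran from 0.134 to 0.488 CPM on control diet and from 0.596 to 1.09 CPM on HFD (log2 fold change 1.39, SE 0.54, edgeR adjusted p = 0.190). That is 1 of 32 members, and 3.01% of all genes tested had groups that did not overlap there. In p53KO its ranges overlapped, with a log2 fold change of 0.14 (SE 0.50). There 0 of 32 members had groups without overlap, against 1.05% of all genes. Col6a6 had an average of -0.31 (SE 0.43).

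Of the FACIT genes other than Col12a1, none passed. Col14a1, a fibril-associated collagen known from portal fibroblasts, was at 60.2 ± 23.1, 76.8 ± 30.6, 82.1 ± 9.37 and 57.7 ± 29.7 CPM in the same order of groups, with a log2 fold change of 0.45 (SE 0.33) in Rosa26KO and -0.41 (SE 0.31) in p53KO. The difference between these, the interaction, was -0.86 (SE 0.45, edgeR adjusted p = 0.592). Col16a1 had an average of 0.08 (SE 0.22), Col20a1 -0.65 (SE 0.25, adjusted p = 0.107, and 0.0420 without HFD_p53KO 7) and Col9a3 -0.23 (SE 0.34). Exons of Col9a3 overlap those of Tcfl5, so its reads may include those of its neighbour. Among the collagens that span the membrane, Col25a1 was very uneven. It ranged from 0.0418 to 8.08 CPM over the libraries, with Control_Rosa26KO 1 the highest, and 8 of 13 HFD libraries lay below the lowest control library. Its average log2 fold change was -1.64 (SE 0.58, edgeR adjusted p = 0.0750), and it passed by DESeq2 (adjusted p = 0.0367) and without HFD_p53KO 7 (-1.92, edgeR adjusted p = 0.0313). Within Rosa26KO it passed without HFD_Rosa26KO 6 (-3.33, edgeR adjusted p = 0.0494). HFD_p53KO 7 (1.605 CPM) and HFD_Rosa26KO 6 (2.55 CPM) were its highest HFD libraries. In the average Col25a1 did not pass without Control_Rosa26KO 1. Col23a1 had 0.32 (SE 0.21), and Col8a1, a network collagen of vessels, had 0.38 (SE 0.30).

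Col18a1 (chromosome 10, 77052178 to 77166548) varied least among the abundant members, with an SD of 0.30 on the log2 scale, where Col1a1 had 1.20. It ranged from 1069 to 1372 CPM with a median of 1251 in Control_Rosa26KO, and from 643 to 1470 CPM with a median of 1242 in Control_p53KO. On HFD it ranged from 828 to 1277 CPM with a median of 983 in Rosa26KO, and from 828 to 1307 CPM with a median of 873 in p53KO. Of 13 HFD libraries 3 lay above the control median. The average log2 fold change was -0.27 (SE 0.12, edgeR adjusted p = 0.157), or 16.8% lower by the fit. The gene stood opposite to the fibrillar genes in the libraries that were apart. Control_p53KO 3 was the lowest at 643 CPM, and without it Col18a1 passed (log2 fold change -0.33, adjusted p = 0.0263). HFD_p53KO 5 and 7, low in type I, were the highest HFD_p53KO libraries, and without both it also passed (-0.36, adjusted p = 0.0300). Col15a1, the other multiplexin, was at 18.1 ± 6.69, 17.3 ± 7.01, 15.7 ± 2.10 and 17.3 ± 5.36 CPM, with -0.10 (SE 0.17).

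**Figure D3:**
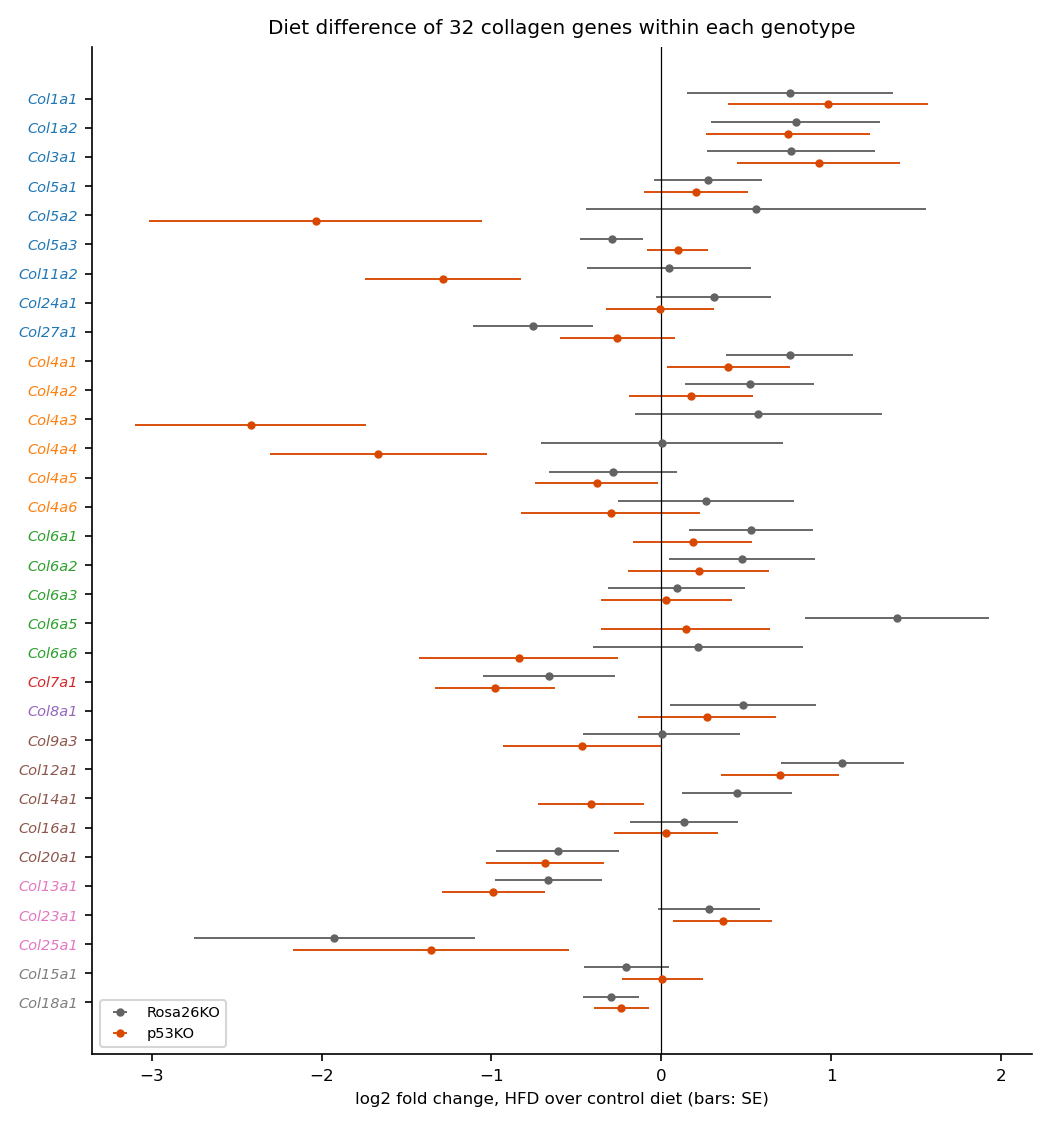
Log2 fold change of HFD over control diet for the 32 collagen genes tested, in Rosa26KO (grey) and p53KO (orange), with SE as bars and gene names coloured by family. Col1a1, Col1a2, Col3a1, Col4a1 and Col12a1 lie to the right of 0 in both genotypes and Col13a1, Col7a1, Col20a1 and Col25a1 to the left. The far left points of Col4a3, Col4a4 and Col11a2 in p53KO each rest on a single control-diet library. The point of Col5a2 in p53KO, also left of 0, includes the high libraries Control_p53KO 1 (205 CPM) and Control_p53KO 6 (75.6 CPM).

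The knockout was compared within each diet and as an average. Trp53 itself had an average log2 fold change of -0.56 (SE 0.10, edgeR unadjusted p = 1.48e-05, adjusted p = 0.210). No collagen passed by edgeR in any of the 3 comparisons, where 0 of 14133 genes passed, and DESeq2 called 0 members in each. On control diet 2 members had an unadjusted p under 0.05, against 9.96% of all genes, and these were Col4a3 (log2 fold change 2.38, SE 0.72, edgeR adjusted p = 0.453) and Col4a4 (1.54, SE 0.67, 0.473). Both rest on Control_p53KO 1, and without it the values were 0.32 and 0.39. Col11a2, a minor fibrillar chain known from cartilage, had 0.96 (SE 0.48), and -0.25 without Control_p53KO 3, which held 10.7 CPM against 0.802 to 2.50 CPM in the other 24 libraries. Col6a5 had 0.88 (SE 0.56) and Col7a1 0.53 (SE 0.36). On HFD 0 members had an unadjusted p under 0.05, against 3.60% of all genes, and the smallest p belonged to Col14a1 (-0.51, SE 0.31), Col4a6 (-0.77, SE 0.51), Col5a2 (-1.12, SE 0.97), Col4a3 (-0.61, SE 0.69) and Col27a1 (0.27, SE 0.34). In the average 0 members had an unadjusted p under 0.05, against 4.05% of all genes, and Col4a3 (0.89, SE 0.50), Col4a4 (0.71, SE 0.49), Col7a1 (0.37, SE 0.26), Col4a6 (-0.49, SE 0.37) and Col8a1 (0.30, SE 0.30) had the smallest p. No member's genotypes were free of overlap on either diet, while 0.283% of all genes were on control diet and 0.149% on HFD.

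For the major genes the genotype difference was small beside its error. Col1a1 had a log2 fold change of 0.18 (SE 0.42) between p53KO and Rosa26KO averaged over diets, Col3a1 0.05 (SE 0.34), Col4a1 0.12 (SE 0.26) and Col18a1 -0.03 (SE 0.12). The interaction, which subtracts the diet difference of Rosa26KO from that of p53KO, called 0 of 14133 genes by edgeR and 5 by DESeq2, none of them a collagen. Here 1 member had an unadjusted p under 0.05, against 8.64% of all genes, which was Col4a3 (-2.99, SE 0.99, edgeR adjusted p = 0.560, and -0.93 without Control_p53KO 1). Col11a2 (-1.34, SE 0.67), Col14a1 (-0.86, SE 0.45), Col5a2 (-2.59, SE 1.40) and Col4a4 (-1.67, SE 0.97) were next. The Col5a2 value includes its 4 high libraries, at 75.6 to 205 CPM. Of the members tested 8 of 32 had an interaction above 0, with a median of -0.28, beside 48.9% and a median of -0.01 over all genes. The median was -0.51 without Control_Rosa26KO 2 and -0.09 without Control_p53KO 3, and it was 0.01 without the 3 libraries high in neutrophil markers.

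Across libraries the type I and III genes varied together. Over 25 libraries log2 CPM of Col1a1 correlated with that of Col1a2 at r = 0.989 (rho = 0.985) and with that of Col3a1 at r = 0.977 (rho = 0.982). Col4a1 correlated with Col4a2 at r = 0.972 (rho = 0.959). Col1a1 correlated with Col4a1 at r = 0.879 (rho = 0.828) and with Col6a1 at r = 0.875 (rho = 0.857). With Col18a1 the relation was negative, at r = -0.784 (rho = -0.816). Each of these had a permutation p of 1e-05 for r and for rho, the smallest that 100000 permutations can give, and 1.33e-05 after adjustment over 8 relations. Without the 2 libraries farthest from the median on the first gene the r values were 0.990, 0.977, 0.964, 0.828, 0.808 and -0.813 in the same order. All these values include differences between the groups. On deviations from group means r was 0.991, 0.976, 0.988, 0.877, 0.886 and -0.748 in that order. Within the 3 runs of library names r was 0.992, 0.990 and 0.990 for Col1a1 with Col1a2, 0.989, 0.979 and 0.985 with Col3a1, 0.880, 0.964 and 0.859 with Col4a1, 0.876, 0.944 and 0.885 with Col6a1, and -0.860, -0.807 and -0.806 with Col18a1. For Col4a1 with Col4a2 it was 0.985, 0.961 and 0.962. The count ratio of Col1a1 to Col1a2 was 1.03 ± 0.185 (SD, n = 25), between 0.626 and 1.39. All values share each library's depth and scaling.

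**Figure D4:**
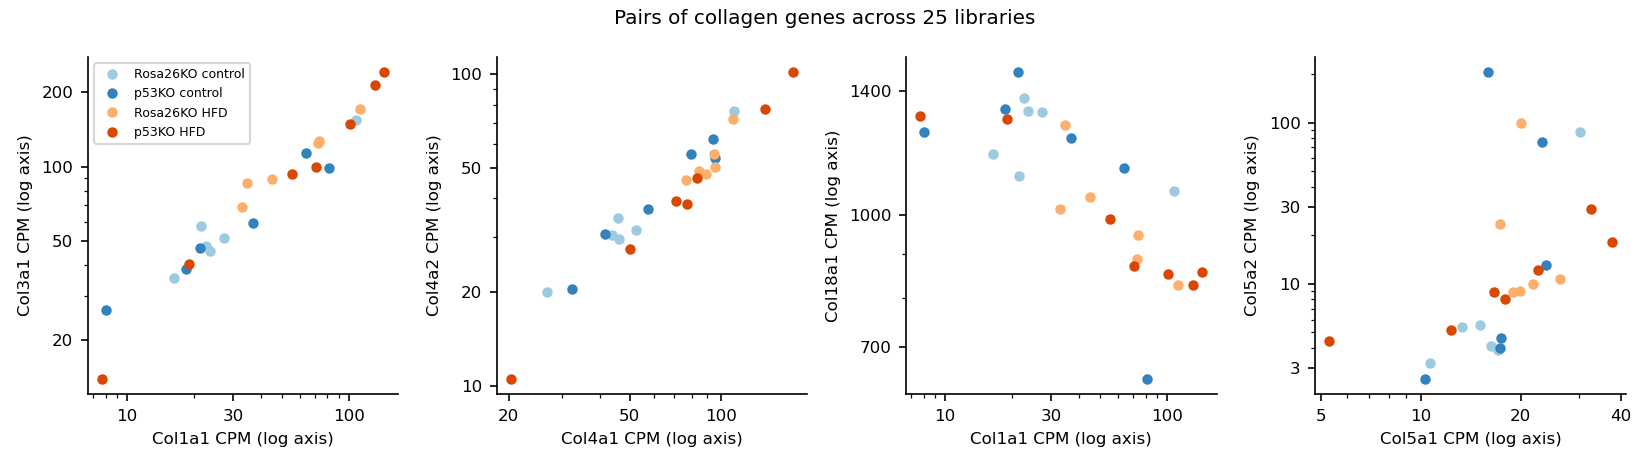
CPM of 4 pairs of collagen genes in 25 libraries on log axes, coloured by group. Col1a1 with Col3a1 (r = 0.977) and Col4a1 with Col4a2 (r = 0.972) lie along a line, Col1a1 with Col18a1 falls (r = -0.784), and 4 libraries with 75.6 to 205 CPM of Col5a2 lie above the band formed with Col5a1.

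Libraries could be ordered by their collagens as a whole. Over the 15 members of at least 10 CPM, HFD_p53KO 1 and HFD_p53KO 2 had a median rank of 2 among 25 from the highest, and Control_Rosa26KO 2 had 3. HFD_p53KO 7 had a median rank of 25 and was the lowest library for 9 of 15 members, and Control_p53KO 4 had 24. The HFD_p53KO group thus held both ends of the range. HFD_Rosa26KO was narrower, with median ranks of 6 to 13, and the other 5 Control_Rosa26KO libraries had median ranks of 17 to 23.

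**Figure D5:**
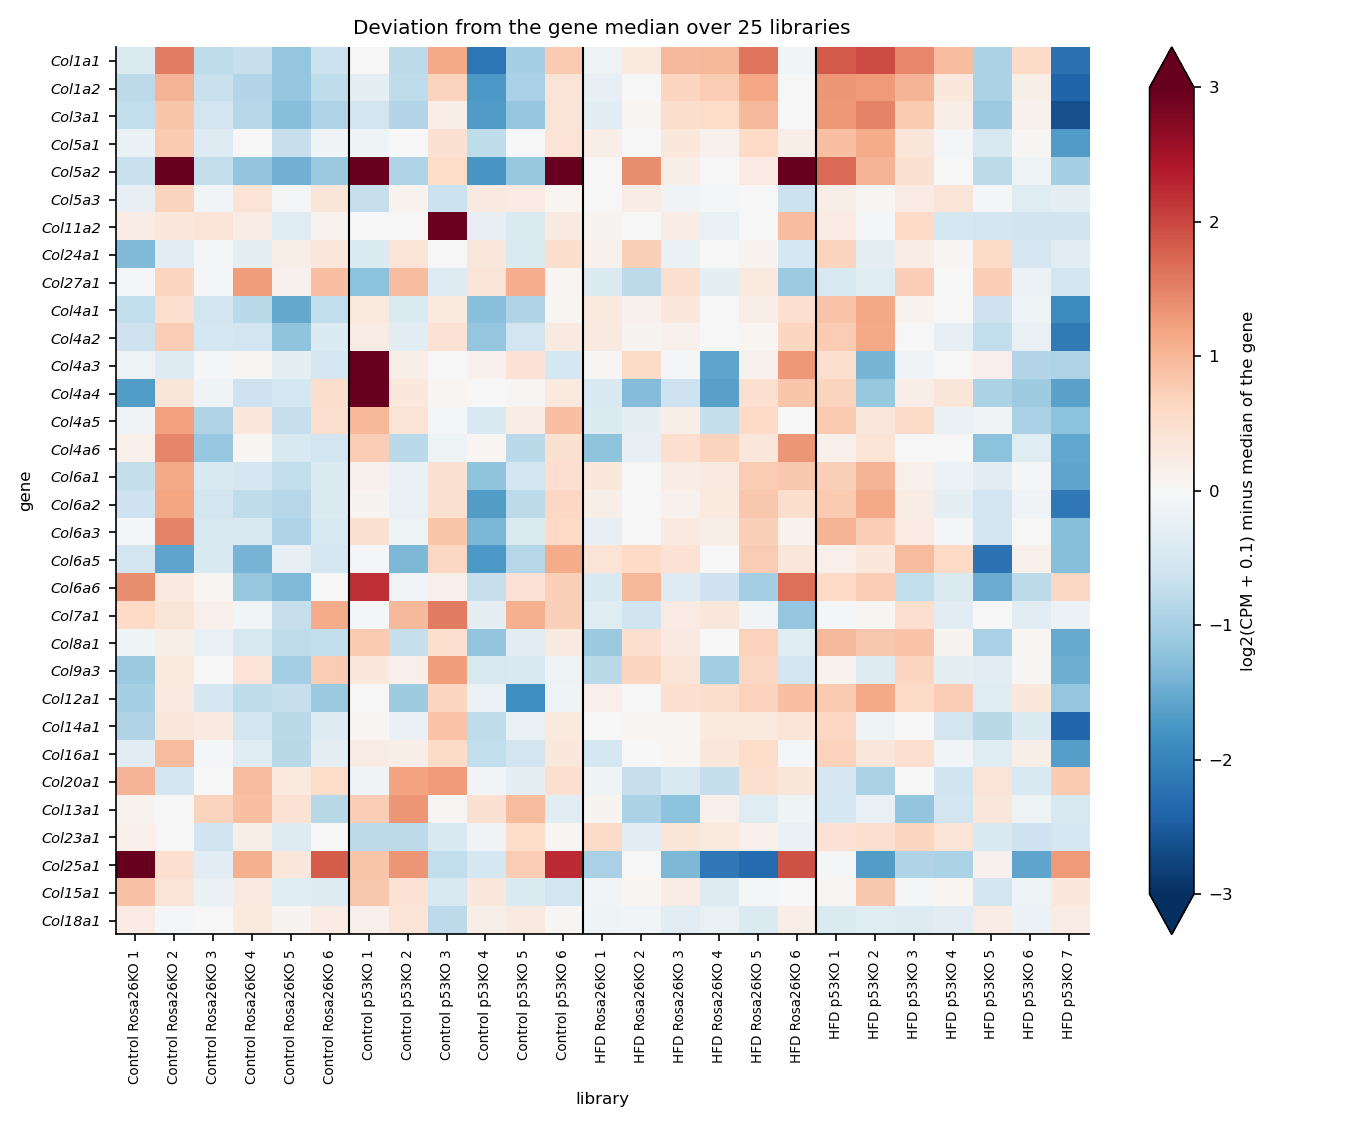
Deviation of each library from the gene's median over 25 libraries, on a log2(CPM + 0.1) scale, for the 32 genes tested, with black lines between groups. Red is above and blue below the median. HFD p53KO 7 is blue in most rows. Control Rosa26KO 2 is red for Col1a1, Col1a2, Col3a1, Col5a2, Col6a1, Col6a2 and Col6a3, and blue for Col6a5 and Col24a1. Col4a3 and Col4a4 are deep red in Control p53KO 1 alone.

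Some cell type marker sums were extreme in the libraries at the ends of this range, and others were not. Of the quiescent stellate cell markers all 12 were tested and none was at 0, and their summed level ranged from 356.5 to 587.4 CPM in Control_Rosa26KO, 323.2 to 517.8 in Control_p53KO, 383.3 to 562.8 in HFD_Rosa26KO and 130.5 to 435.8 in HFD_p53KO. HFD_p53KO 7 was the lowest library of all for this sum, and Control_Rosa26KO 2 the highest. For the 10 portal fibroblast markers, of which 8 were tested and none was at 0, the sums ranged from 21.9 to 65.6, 18.6 to 45.0, 27.7 to 45.3 and 14.9 to 52.1 CPM in the same order, with the same libraries at the ends. Of 10 myofibroblast markers 9 were tested and none was at 0, with sums of 1338.6 to 3580.1, 1328.8 to 3601.7, 1390.0 to 3478.6 and 1238.2 to 2584.4 CPM, a list that includes Fn1, which hepatocytes also make. Here HFD_p53KO 7 ranked 5 from the highest and Control_Rosa26KO 2 ranked 15. Sinusoidal endothelial markers, 10 of 10 tested, were lowest in HFD_p53KO 7 at 168.0 CPM, and ranged up to 635.5 CPM. From the highest, HFD_p53KO 7 also ranked 25 for smooth muscle and other endothelial sums, and 24 for Kupffer and recruited macrophage sums. It ranked 20 for hepatocyte, 14 for neutrophil and 5 for erythroid sums. HFD_p53KO 1 and 2, highest in collagens, had at most 435.8 CPM of the stellate sum, below Control_p53KO 6, which ranked 5 at 488.7 CPM. Col1a1 correlated across 25 libraries with the stellate gene Lrat at r = 0.645 (rho = 0.612, permutation p = 0.0002 and 0.00159, adjusted 0.000229 and 0.00173), and at 0.585 without the 2 farthest libraries. With Acta2, the smooth muscle actin of activated stellate cells, it was r = 0.556 (rho = 0.605, permutation p = 0.00323 and 0.00173, adjusted 0.00323 and 0.00173), and 0.330 without those 2, so it rests in part on them. Within runs r was 0.496, 0.586 and 0.802 for Lrat and 0.592, 0.725 and 0.637 for Acta2. On deviations from group means it was 0.716 for Lrat and 0.587 for Acta2. In the diet average, where 9.71% of all genes passed, 2 of 12 stellate markers passed, and both fell, Reln (-0.57, SE 0.17, edgeR adjusted p = 0.0380) and Ecm1 (-0.42, SE 0.13, 0.0424). The list's median was -0.26, and Rgs5, a pericyte gene, had 0.70 (SE 0.25, adjusted p = 0.0722). Of 9 myofibroblast markers 1 passed, Postn (0.93, SE 0.26, 0.0272), a matrix protein of activated fibroblasts, which rose. Of 8 portal fibroblast markers 1 passed, Fbln2 (0.98, SE 0.27, 0.0207), a matrix glycoprotein, which rose. Of 10 sinusoidal endothelial markers 1 passed, the lectin Clec4g (-0.58, SE 0.14, 0.00816), which fell, and of 7 other endothelial markers 1 passed, Ly6c1 (1.26, SE 0.34, 0.0198), which rose. Of 8 hepatocyte markers 5 fell, with a median log2 fold change of -0.57, and of 4 erythroid markers 2 rose. The part of these cell types in the collagen values was not tested.

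Other genes of collagen biology were read from lists of related function. The background for these counts is the 9.71% of all genes that passed in the diet average. Of 18 chaperones and modifying enzymes tested, 2 passed, which is near that share. P4ha2, a prolyl 4-hydroxylase subunit that stabilises the triple helix, rose (log2 fold change 0.43, SE 0.13, edgeR adjusted p = 0.0409), and Fkbp14, a prolyl isomerase of the endoplasmic reticulum, fell (-0.38, SE 0.10, 0.0175). Plod3, a lysyl hydroxylase, had -0.12 (SE 0.06), and Sparc, a collagen-binding matrix protein, had 0.38 (SE 0.22). Of 12 genes of crosslinking and processing none passed, and 1 had an unadjusted p under 0.05, Loxl2, a lysyl oxidase (0.72, SE 0.27, edgeR adjusted p = 0.0959). Lox had 0.71 (SE 0.35), Bmp1, which trims procollagen, -0.24 (SE 0.13), and Tgm2 0.35 (SE 0.25).

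Of 14 genes of degradation and its inhibition, 1 rose and 1 fell. Mmp12, the macrophage elastase, rose (log2 fold change 1.96, SE 0.48, edgeR adjusted p = 0.0113). Reck, a membrane-anchored inhibitor of matrix metalloproteinases, fell (-1.60, SE 0.24, 0.000341). Reck also passed within both genotypes, at -1.86 (SE 0.35, 0.00937) in Rosa26KO and -1.34 (SE 0.33, 0.0307) in p53KO. It was at 13.1 ± 6.16, 9.11 ± 5.79, 3.60 ± 1.34 (SD, n = 6 each, Control_Rosa26KO, Control_p53KO and HFD_Rosa26KO) and 3.58 ± 0.828 (SD, n = 7, HFD_p53KO) CPM. The metalloproteinase inhibitors Timp1 (1.03, SE 0.49) and Timp2 (-0.40, SE 0.18) had adjusted p of 0.203 and 0.187. Of 9 collagen receptors none passed and none had an unadjusted p under 0.05 in the diet average, where Lair1 (0.42, SE 0.28), Adgrg1 (-0.36, SE 0.25), Itga11 (0.20, SE 0.38) and Itga10 (0.07, SE 0.16) had the smallest p. Of the genes of TGF-beta and PDGF signalling 20 were tested, and the 3 named here do not stand for the list. Thbs1 (1.08, SE 0.42), Smad7 (-0.32, SE 0.13) and Smad4 (-0.10, SE 0.04) did not pass. Between genotypes and for the interaction no gene of these lists passed by edgeR, where no gene passed at all.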

How the data were processed

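The deposited values are raw read counts per gene, made by the authors with STAR and HOMER on GRCm38 (mm10), per the submitters' processing notes. Versions, annotation and strand of the counting are unstated (not given in the sources used here). Total counts of 16324283 to 21501281 set the precision for scarce genes. In R 4.3.3, edgeR 4.0.16 filtered low counts (minimum count 10, minimum total 15) and scaled by TMM, and a quasi-likelihood fit over all 25 libraries in 4 groups gave 7 comparisons, adjusted by Benjamini-Hochberg over 14133 genes at 0.05. SE is the log2 fold change over the root of F. Log2 CPM used a prior count of 2. Correlations used 100000 permutations in scipy 1.17.1. Positions are from GENCODE M21. Alternatives were RLE scaling, no filter, DESeq2 1.42.0, a replicate block, a library run term (3 runs of consecutive library numbers, which the labels call nothing more) and libraries left out. The fits were tested on simulated data. Named members were 14 preset genes, called members and the 5 smallest p per comparison, and up to 4 smallest p in each of 5 pathway lists. Other members were added to account for all. Members and lists were chosen with earlier results of these data known. How many genes of the TGF-beta and PDGF list passed is not reported here.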

Additional observations from a re-analysis of the deposited data

Results flagged for a closer look

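Over 128 sets of values (32 genes in 4 groups), 13 held a library far from the rest of its group by Dixon's test at 95%. Chance would give about 6.4 if the sets were independent. Many of these genes vary together, so the excess over 6.4 cannot be read as a test. Of these, 7 were Control_Rosa26KO 2, which was high for Col1a1 (107.3 CPM, the other libraries of its group 16.3 to 27.4), Col1a2 (86.33 CPM), Col3a1 (154.5 CPM), Col5a2 (86.87 CPM), Col6a1 (54.26 CPM), Col6a2 (41.83 CPM) and Col6a3 (71.45 CPM). Control_p53KO 1 was high for Col4a3 (19.49 CPM) and Col4a4 (3.817 CPM). Control_p53KO 3 was high for Col11a2 (10.7 CPM) and low for Col18a1 (643.4 CPM, the others 1136 to 1470). HFD_p53KO 3 was high for Col7a1 (0.5546 CPM), and Control_Rosa26KO 5 was low for Col11a2 (0.9756 CPM).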

How the results depend on the processing

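No value changed direction in a call. For genes past the threshold, DESeq2 gave 1, 1 and 7 between genotypes (control diet, HFD, average) and 5 for the interaction, 615 for diet in Rosa26KO (213 by edgeR) and 907 in p53KO (405). A library run term gave 442 and 633. Without the libraries high in neutrophil markers the counts were 538 in Rosa26KO, 2500 in the diet average (1372) and 1 in the genotype average. Without HFD_p53KO 5 and 7 the counts were 449 in Rosa26KO, 892 in p53KO and 2219 in the diet average. Collagens past the threshold in the diet average (3 of 32, against 9.71% of all genes) numbered 10 of 32 without HFD_p53KO 5 and 7, against 15.6% of all genes. In p53KO 2 collagens passed then, beside 892 genes in all, and 1 by DESeq2, beside 907. In Rosa26KO 1 collagen passed without the libraries high in neutrophil markers, beside 538 genes in all.

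With 1 library left out, genes called ranged from 93 to 509 in Rosa26KO, 173 to 760 in p53KO, 1012 to 1883 in the diet average and 0 to 1 in the genotype average, and collagens from 0 to 1, 0 to 1 and 1 to 6 for diet. The collagens' median log2 fold change ranged from 0.0017 (without Control_p53KO 3) to 0.53 (without Control_Rosa26KO 2) between genotypes on control diet, -0.14 to 0.06 on HFD, -0.0071 to 0.18 in the average, 0.14 to 0.48, -0.16 to 0.03 and -0.08 to 0.18 for diet in Rosa26KO, p53KO and the average, and -0.51 to -0.09 for the interaction. The cause of these moves was not tested.

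The labels do not say whether replicate numbers pair the libraries. Over 36 same-number pairs the correlation of deviations ran from -0.398 to 0.604 (median 0.071), and 17 pairs exceeded 0.1. Of 25 libraries, 9 correlated best with a library of the same number. These values cannot decide the question, because libraries of the same number also share a run of library names. With a replicate block 549 genes passed in Rosa26KO, 785 in p53KO, 2282 in the diet average (16.1% of genes tested) and 1 in the genotype average. In the diet average 7 of 32 collagens passed, which were Col1a2, Col3a1, Col4a1, Col12a1, Col13a1, Col20a1 and Col25a1, while Col7a1 lost its call (adjusted p = 0.0585). Depth limits Col7a1 and the 12 genes not tested. It also limits other scarce members that were tested, such as Col9a3 (mean 0.364 CPM), Col4a6 (0.410 CPM) and Col24a1 (0.436 CPM).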
